A study of Mus musculus with 16 samples.

Results

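Neurexins, neuroligins and related adhesion proteins hold the presynaptic and postsynaptic membranes together. Probes of 9 such genes, *Nrxn2*, *Nrxn3*, *Nlgn1*, *Nlgn2*, *Nlgn3*, *Lrrtm1*, *Lrrtm2*, *Cntnap2* and *Cadm1*, were followed here in the hippocampus of *Mef2c*-het mice and their WT littermates on postnatal days 1 (P1) and 30 (P30). The genes were taken as a named list of trans-synaptic adhesion genes linked to autism, drawn up with earlier results of these data known. Their probes were found by current gene symbol, Entrez gene number or RefSeq accession, with no use of their signals. They are 9 of the 17567 genes named on the array and are carried by 11 of its 25697 probes. *Cadm1* is listed in the deposited table under its older name Igsf4a.

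RNA from the hippocampus of each of 16 mice was hybridised to 1 Illumina MouseRef-8 v2 array, on which the signal of a probe is the mean over many beads. The 4 groups of 4 arrays were WT at P1, *Mef2c*-het at P1, WT at P30 and *Mef2c*-het at P30. *Mef2c*-het mice carried a conventional allele of *Mef2c* lacking exon 2 on a C57BL/6J background, so that 1 copy was missing from every tissue, and the controls were WT littermates. The array labels call the *Mef2c*-het mice KO, and they give no litter, sex or chip, so that the p-values measure the spread between these arrays. *Mef2c* encodes a transcription factor of neurons, muscle and microglia, and the comparison of genotypes asks whether hippocampal gene expression differs when 1 copy is lost.

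Neurexins sit on the presynaptic side and are made in long and short forms from separate promoters and by alternative splicing. They bind neuroligins and leucine-rich repeat transmembrane (LRRTM) proteins across the cleft. *Nlgn2* acts at inhibitory synapses, *Nlgn1*, *Lrrtm1* and *Lrrtm2* mainly at excitatory ones, and *Nlgn3* at both. CNTNAP2 (CASPR2) is a neurexin-like protein that clusters potassium channels along myelinated axons, and CADM1 (SynCAM 1) is an immunoglobulin-family protein that joins both sides of the synapse.

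The hippocampal origin of the samples was checked against markers of its principal cells, of which *Prox1*, *Neurod2*, *Wfs1*, *Zbtb20*, *C1ql2* and *Fibcd1* were detected in every group, *Neurod6* on 7 of 8 arrays at P1 and on 0 of 8 at P30, and *Calb1* on no array. Markers listed for thalamus (*Tcf7l2*, *Prkcd* and *Rora*) and striatum (*Drd1* and *Ppp1r1b*) were detected on all 16 arrays, and *Drd2* on 15. The summed signal of 5 choroid plexus markers, on the linear scale after quantile normalization, varied widely between arrays of a group. It ran from 6422 to 30521 in WT and from 2105 to 25305 in *Mef2c*-het mice at P1. At P30 it ran from 1302 to 22020 in WT and from 1977 to 4587 in *Mef2c*-het mice. The part of neighbouring tissue in the results was not tested. An array detected 12638 to 14150 probes (detection p under 0.05), and a member probe was read from 14 to 59 beads with a standard error over the beads of 2.22% to 8.80% of its signal. The logarithms of the unnormalized signals correlated across probes at r = 0.983 to 0.997 between arrays of an age and at 0.918 to 0.943 between the ages, where probes are not independent replicates. At each age the arrays fell into a larger and a smaller cluster, and the 5 arrays of the smaller clusters (WT P1 replicate 8, *Mef2c*-het P1 replicate 8, WT P30 replicates 6 and 7 and *Mef2c*-het P30 replicate 7) had a higher background, with a 5th percentile of intensity of 140.0 to 161.4 against 105.8 to 130.8 on the other 11. By *Xist* and Y-linked transcripts all 8 P30 mice read as male, while 3 of 4 WT and 2 of 4 *Mef2c*-het mice at P1 read as female. The targeted gene did not mark the genotypes clearly. The *Mef2c* probe ILMN_2732465 averaged 9.71 ± 0.11 on the log2 scale in WT mice at P30 (SD, n = 4), while the *Mef2c*-het arrays of that age averaged 9.46 ± 0.45 (SD, n = 4), a difference of -0.25 (exact permutation p = 0.371, two-sided). The probe ILMN_2887992 averaged 8.72 ± 0.17 in WT and 8.42 ± 0.37 in *Mef2c*-het mice at P30 (SD, n = 4), a difference of -0.29 (exact permutation p = 0.2, two-sided). There *Mef2c*-het replicate 7 read 8.95, and the other *Mef2c*-het P30 arrays read 8.16 to 8.42, below the lowest WT array at 8.59. At P1 neither probe was clearly lower in *Mef2c*-het mice. The difference was -0.0054 for ILMN_2732465 (exact permutation p = 0.971, two-sided) and 0.068 for ILMN_2887992 (exact permutation p = 0.714, two-sided). Another probe, ILMN_1214950, was detected on too few arrays to be tested. Whether these probes lie within the deleted exon is not given in the sources used here, so they do not check the labels. The highest P30 value of ILMN_2732465 was that of *Mef2c*-het replicate 7, at 9.92. Without that array 0 of 10 member probes were called for genotype at P30, beside 1 of all 14722 probes tested.

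Sequences before annotated start sites are shown for members whose signal changed with age. RefSeq windows of GRCm38.p6 were held for 5 of the 9 members, with 9 start sites in all (3 for *Nrxn3*, 2 each for *Nlgn1* and *Cntnap2* and 1 each for *Nlgn2* and *Lrrtm1*). Printed are the 250 bases before a start site, 5′ to 3′ on the strand of the gene, with every CpG dinucleotide in capitals. The first and last of the 3 *Nrxn3* windows held are set one under the other, since its probes changed unequally, and they are followed by *Nlgn2* and the first window of *Cntnap2*. The gene record of *Nrxn3* begins further upstream, at 88722701, where no window was held. Its first window thus lies inside the gene record, and whether it acts as a promoter was not tested. The CpG counts of its windows are therefore not a comparison of known promoters.
Nrxn3 first window (chr12:88794254-88794503, plus strand): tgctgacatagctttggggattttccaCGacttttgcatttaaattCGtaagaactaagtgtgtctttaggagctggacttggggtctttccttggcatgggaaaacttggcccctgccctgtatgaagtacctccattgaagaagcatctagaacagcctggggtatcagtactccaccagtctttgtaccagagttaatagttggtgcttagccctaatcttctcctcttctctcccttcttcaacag
Nrxn3 last window (chr12:89812233-89812482, plus strand): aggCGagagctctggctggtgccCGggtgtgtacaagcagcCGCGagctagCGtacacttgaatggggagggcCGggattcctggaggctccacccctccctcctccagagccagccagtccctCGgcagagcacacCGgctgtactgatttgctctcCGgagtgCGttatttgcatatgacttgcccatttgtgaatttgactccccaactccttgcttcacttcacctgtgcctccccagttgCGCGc
Nlgn2 (chr11:69837785-69838034, minus strand): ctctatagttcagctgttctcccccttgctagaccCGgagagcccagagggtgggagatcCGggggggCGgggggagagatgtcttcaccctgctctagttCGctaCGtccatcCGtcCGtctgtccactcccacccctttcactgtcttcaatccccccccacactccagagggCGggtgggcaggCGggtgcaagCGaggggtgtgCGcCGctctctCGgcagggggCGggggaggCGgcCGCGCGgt
Cntnap2 first window (chr6:45059811-45060060, plus strand): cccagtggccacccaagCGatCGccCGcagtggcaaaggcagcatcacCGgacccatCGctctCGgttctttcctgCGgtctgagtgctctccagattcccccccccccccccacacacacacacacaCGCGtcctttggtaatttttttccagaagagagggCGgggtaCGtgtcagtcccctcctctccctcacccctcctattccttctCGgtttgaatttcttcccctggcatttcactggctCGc

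These windows differed widely in CpG content. The window of *Nlgn2* held 18 CpG dinucleotides and that of *Cntnap2* 13, the last window of *Nrxn3* held 12 and its first window 2, while the median over all 32851 windows of the same length was 6, with quartiles of 2 and 16. The MEF2 consensus, searched on both strands, was found in 0 of the 9 member windows and in 2.92% of all windows. The cyclic AMP response element TGACGTCA, which reads the same on both strands, was found in 0 of the 9 and in 1.55% of all. No match says only that these letters are not within these windows.

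From P1 to P30 in WT mice, the signals of both neurexins, of 2 neuroligins and of both LRRTM genes rose, those of *Cntnap2* and *Cadm1* fell, and that of *Nlgn1* did not pass the test. The widest changes were a 2.39-fold rise of 1 *Nrxn3* probe and a 2.22-fold rise of *Nlgn3*. Of the 10 member probes tested, 9 passed an adjusted p of 0.05 in limma, 7 of them higher and 2 lower at P30, where 59.7% of all 14777 probes tested passed, 28.0% higher and 31.7% lower. With the sex read from the arrays as a covariate, the WT calls of *Lrrtm1* and *Cntnap2* were lost (limma adjusted p = 0.267 and 0.238). The arrays of the ages did not overlap for 7 of the 10, against 53.1% of all probes. The median log2 fold change of the members was 0.33, beside -0.03 over all probes, and the median of its size was 0.53 beside 0.30. In *Mef2c*-het mice 8 of the 10 passed, 6 higher and 2 lower, beside 58.3% of all probes (26.9% higher and 31.4% lower), and the ages did not overlap for 5, beside 52.5%. There the members had a median log2 fold change of 0.29, beside -0.02 over all probes.

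**Figure D1:**
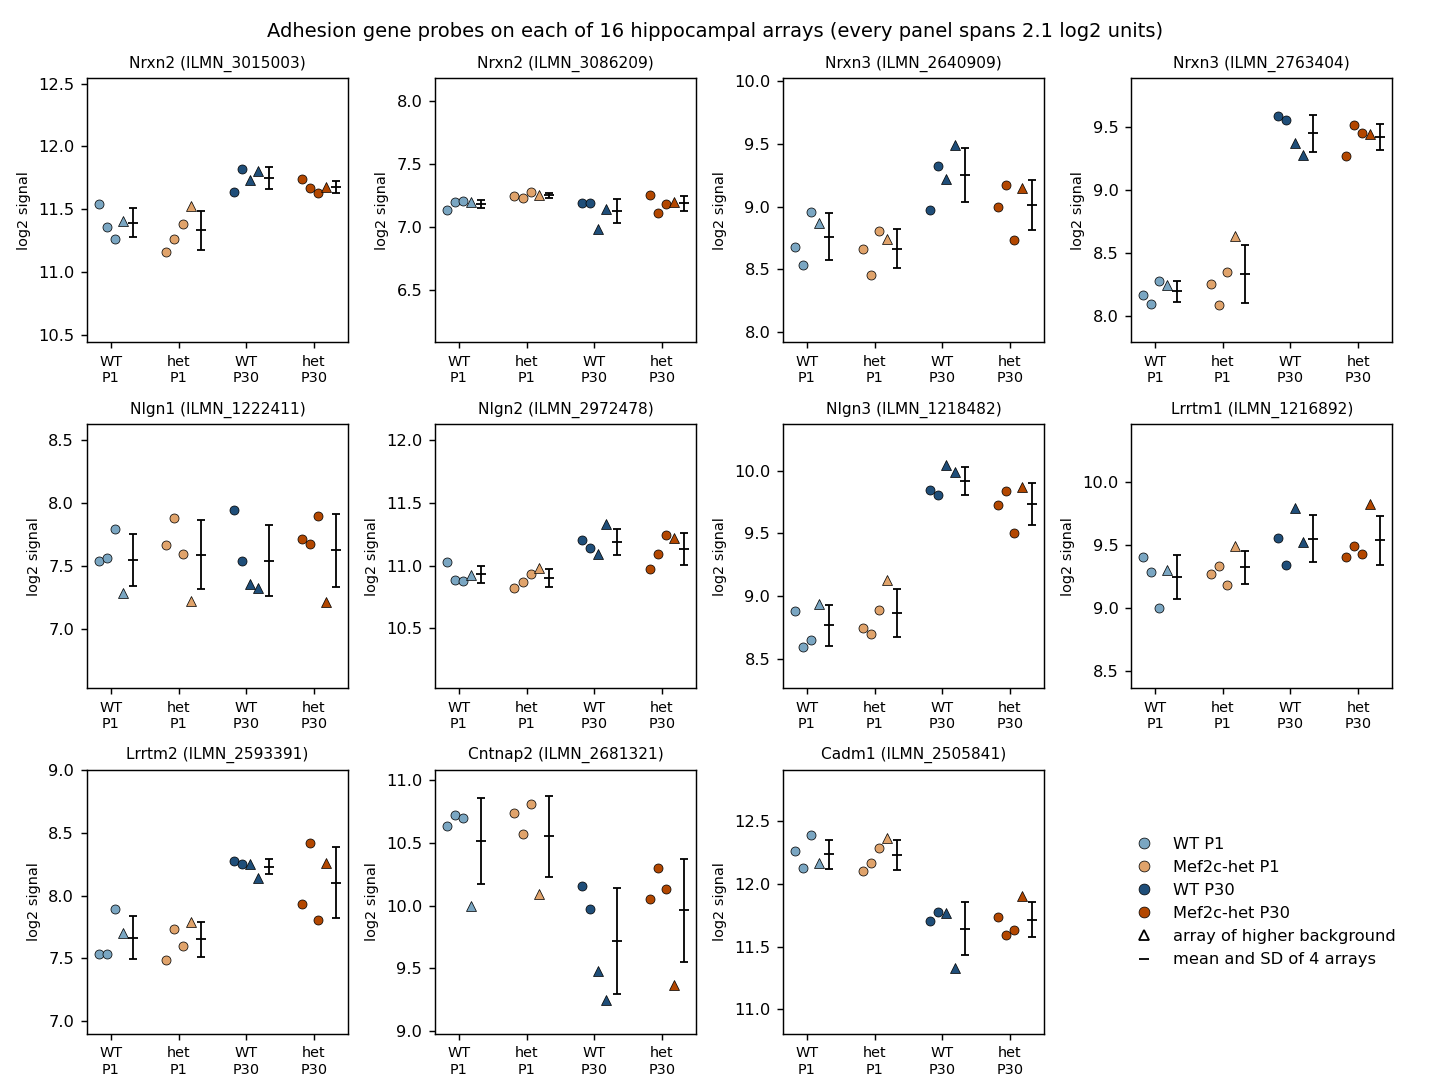
Log2 quantile-normalized signal (vertical axis) of each of the 11 member probes on each of the 16 arrays, in 4 groups of 4, with triangles for the 5 arrays of higher background and the mean and SD beside each group. *Nlgn3* and *Nrxn3* ILMN_2763404 lie higher on all 8 P30 arrays than on any P1 array, *Cadm1* lies lower on all 8, and within each age WT and *Mef2c*-het arrays overlap for every probe tested.

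The signals below are log2 values after quantile normalization over the 16 arrays. The values of a group are given in the order of its replicate numbers, which are not said to mark a shared litter. In whole hippocampus, fewer cells of a type and less RNA per cell cannot be told apart. All 10 tested probes were detected on all 16 arrays except that of *Nlgn1*, so none entered the test through 1 age alone.

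*Nrxn2* (chromosome 19, 6418756 to 6533217, GRCm38.p6), a presynaptic neurexin, was carried by 2 probes. ILMN_3015003 had log2 signals of 11.54, 11.36, 11.26 and 11.41 in WT mice at P1 and of 11.63, 11.82, 11.74 and 11.81 at P30. In *Mef2c*-het mice they were 11.16, 11.26, 11.38 and 11.52 at P1 and 11.74, 11.67, 11.63 and 11.68 at P30. All P30 arrays lay above all P1 arrays of their genotype, by a narrow margin. The rise was 0.36 on the log2 scale (SE 0.078, limma adjusted p = 0.000855) in WT and 0.35 (SE 0.078, adjusted p = 0.00116) in *Mef2c*-het mice. ILMN_3086209, the other probe of the gene, was detected on 0 of the 16 arrays, with log2 signals between 6.98 and 7.28, and was not tested.

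*Nrxn3* (chromosome 12, 88722701 to 90334935) encodes another presynaptic neurexin, and its 2 probes carry the same transcript identifier in the deposited table. ILMN_2763404 had log2 signals of 8.16, 8.09, 8.28 and 8.25 in WT mice at P1 and of 9.59, 9.56, 9.37 and 9.28 at P30. The *Mef2c*-het arrays read 8.25, 8.09, 8.35 and 8.63 at P1 and 9.27, 9.52, 9.45 and 9.45 at P30. The ages were well apart in both genotypes, and the highest P1 array was *Mef2c*-het replicate 8, an array of higher background. The probe rose 2.39-fold in WT, a log2 change of 1.26 (95% confidence interval 1.04 to 1.47, limma adjusted p = 1.85e-08), and 2.13-fold in *Mef2c*-het mice, a log2 change of 1.09 (0.87 to 1.31, adjusted p = 1.08e-07).

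The other *Nrxn3* probe, ILMN_2640909, had log2 signals of 8.68, 8.54, 8.96 and 8.87 in WT mice at P1 and of 8.97, 9.33, 9.22 and 9.49 at P30. Those of *Mef2c*-het mice were 8.66, 8.45, 8.81 and 8.74 at P1 and 9.0005, 9.18, 8.74 and 9.15 at P30. The WT ages just missed each other, while *Mef2c*-het P30 replicate 6 lay among the P1 arrays. Its rise was 0.49 (SE 0.125, limma adjusted p = 0.00283) in WT and 0.35 (SE 0.125, adjusted p = 0.0239) in *Mef2c*-het mice. The latter call was lost without *Mef2c*-het P1 replicate 2 and without P30 replicate 5 or 7, where the change lay between 0.28 and 0.34, and also without the 5 arrays of higher background (0.34, adjusted p = 0.0502). ILMN_2763404 rose more than ILMN_2640909 by 0.77 on the log2 scale in WT and by 0.74 in *Mef2c*-het mice (exact permutation p = 0.0286 for each, two-sided, the smallest that 4 against 4 arrays allow), a comparison chosen after the values of the probes were seen. The place of each probe in the transcripts is not given in the sources used here.

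Neuroligins are the main postsynaptic partners of neurexins. *Nlgn3* (chromosome X, 101299179 to 101321350) had log2 signals of 8.88, 8.60, 8.65 and 8.94 in WT mice at P1 and of 9.85, 9.80, 10.04 and 9.99 at P30. In *Mef2c*-het mice they were 8.75, 8.70, 8.89 and 9.13 at P1 and 9.73, 9.84, 9.50 and 9.87 at P30. Every P30 array lay above every P1 array. The rise was 2.22-fold in WT, a log2 change of 1.15 (95% confidence interval 0.92 to 1.38, limma adjusted p = 1.03e-07), and 1.82-fold in *Mef2c*-het mice, a log2 change of 0.87 (0.64 to 1.10, adjusted p = 2.98e-06). Since the gene is X-linked and the P30 mice were all read as male, the P1 arrays were also set apart by the sex read from them. Their mean log2 signal was 8.75 on the 5 read as female and 8.92 on the 3 read as male, both below the lowest P30 array at 9.50.

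*Nlgn2* (chromosome 11, 69823123 to 69837784), the neuroligin of inhibitory synapses, changed little. Its log2 signals were 11.03, 10.89, 10.88 and 10.92 in WT mice at P1 and 11.20, 11.14, 11.09 and 11.33 at P30. The *Mef2c*-het arrays read 10.82, 10.87, 10.94 and 10.98 at P1 and 10.97, 11.09, 11.24 and 11.22 at P30. The WT ages were apart, and *Mef2c*-het P30 replicate 3 lay just below the highest P1 array. The rise of 0.26 (SE 0.071) in WT had a limma adjusted p of 0.00497 and that of 0.23 (SE 0.071) in *Mef2c*-het mice an adjusted p of 0.0109. Scaling to a common median in place of quantile normalization ended both calls, with 0.20 in each genotype (adjusted p = 0.178 and 0.184).

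*Nlgn1* (chromosome 3, 25421808 to 26332866), the neuroligin of excitatory synapses, was dim. Its log2 signals were 7.54, 7.57, 7.80 and 7.28 in WT mice at P1 and 7.94, 7.54, 7.36 and 7.33 at P30. Those of *Mef2c*-het mice were 7.66, 7.88, 7.60 and 7.22 at P1 and 7.71, 7.67, 7.90 and 7.21 at P30. The lowest array of each group was one of higher background, and the probe was detected on 12 of the 16 arrays, 3 of 4 in each group, the other 4 being WT P1 replicate 8, *Mef2c*-het P1 replicate 8, WT P30 replicate 7 and *Mef2c*-het P30 replicate 7. Its change with age was -0.01 in WT (95% confidence interval -0.36 to 0.35) and 0.03 in *Mef2c*-het mice (-0.33 to 0.39), so that changes within these bounds were not excluded with 4 arrays a group.

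The LRRTM genes encode postsynaptic neurexin ligands of excitatory synapses. *Lrrtm2* (chromosome 18, 35209003 to 35215024) had log2 signals of 7.53, 7.53, 7.90 and 7.70 in WT mice at P1 and of 8.28, 8.25, 8.25 and 8.14 at P30. In *Mef2c*-het mice they were 7.48, 7.73, 7.60 and 7.79 at P1 and 7.94, 8.42, 7.81 and 8.26 at P30. The ages were apart in both genotypes, with 2 *Mef2c*-het P30 arrays close to the P1 range. The rise was 0.57 (SE 0.119, limma adjusted p = 0.000626) in WT and 0.45 (SE 0.119, adjusted p = 0.0038) in *Mef2c*-het mice. With the background subtracted by normexp it was 1.16 in WT and 0.94 in *Mef2c*-het mice.

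*Lrrtm1* (chromosome 6, 77229210 to 77259915) had log2 signals of 9.41, 9.29, 9.001 and 9.30 in WT mice at P1 and of 9.55, 9.34, 9.79 and 9.52 at P30. The *Mef2c*-het arrays read 9.27, 9.34, 9.19 and 9.50 at P1 and 9.41, 9.49, 9.43 and 9.83 at P30. The ages overlapped in both genotypes. The difference of 0.30 in WT (SE 0.114) passed in limma with an adjusted p of 0.0303 and had an exact permutation p of 0.0571 (two-sided), and that of 0.22 in *Mef2c*-het mice (SE 0.114) had a limma adjusted p of 0.117. The WT call was lost under 7 of 25 other settings. Among them were the sex covariate (0.20, limma adjusted p = 0.267) and a block for the array cluster (0.20, adjusted p = 0.0993). The omission of WT P30 replicate 2 or 6 or of WT P1 replicate 5 also ended it. Cyclic loess brought the *Mef2c*-het value to 0.28 (limma adjusted p = 0.0314).

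*Cadm1* (chromosome 9, 47530170 to 47862280) had log2 signals of 12.26, 12.13, 12.38 and 12.17 in WT mice at P1 and of 11.70, 11.77, 11.77 and 11.33 at P30. Those of *Mef2c*-het mice were 12.10, 12.16, 12.28 and 12.36 at P1 and 11.73, 11.59, 11.63 and 11.90 at P30. Every P30 array lay below every P1 array. The signal was 1.51-fold lower at P30 in WT, a log2 change of -0.59 (95% confidence interval -0.81 to -0.38, limma adjusted p = 9.26e-05), and 1.43-fold lower in *Mef2c*-het mice, a log2 change of -0.52 (-0.73 to -0.30, adjusted p = 0.000352).

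*Cntnap2* (chromosome 6, 45060061 to 47301393) had log2 signals of 10.63, 10.72, 10.70 and 9.999 in WT mice at P1 and of 10.16, 9.98, 9.48 and 9.25 at P30. In *Mef2c*-het mice they were 10.74, 10.57, 10.81 and 10.09 at P1 and 10.05, 10.30, 10.13 and 9.36 at P30. The lowest array at P1 in each genotype was replicate 8, the array of higher background, and the ages overlapped through it. The signal was 1.74-fold lower at P30 in WT, a log2 change of -0.80 (SE 0.237, limma adjusted p = 0.00819), and 1.503-fold lower in *Mef2c*-het mice, a log2 change of -0.59 (SE 0.237, adjusted p = 0.0431).

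The signal of *Cntnap2* differed with the background of the array by more than that of any other tested member. On the arrays of higher background its log2 signal was lower by 0.62 to 0.80 than on the others of the same group, and that of *Nlgn1* was lower by 0.35 to 0.55, whereas *Nlgn3* was higher by 0.18 to 0.35. Within the arrays of lower background *Cntnap2* changed with age by -0.62 in WT and by -0.54 in *Mef2c*-het mice, with the ages apart in both. Within those of higher background the values were -0.64 and -0.72, from 1 P1 and 2 P30 arrays in WT. In *Mef2c*-het mice they came from 1 array at each age. With the sex read from the arrays as a covariate the change was -0.39 in WT (limma adjusted p = 0.238) and -0.31 in *Mef2c*-het mice (adjusted p = 0.270). Of the 3 P1 arrays read as male, 2 were of higher background, and the other, *Mef2c*-het replicate 2, read 10.57, beside 10.63 to 10.81 on the 5 read as female. The *Mef2c*-het call was lost under 12 of 25 other settings, among them the omission of *Mef2c*-het P1 replicate 1, 2 or 4, of *Mef2c*-het P30 replicate 3 or 7 or of WT P1 replicate 1, and the value lay at -0.39 without *Mef2c*-het P30 replicate 7. Over all members, the 9 probes called in WT kept their sign within the arrays of lower background (3 at P1 and 2 at P30). So did the 8 called in *Mef2c*-het mice (3 arrays at each age). The ages were apart for 8 probes in WT and for 7 in *Mef2c*-het mice. These probes had been called on a set that holds the same arrays, so the kept signs were largely fixed beforehand and are no separate test. The share of all probes within these arrays was not computed.

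**Figure D2:**
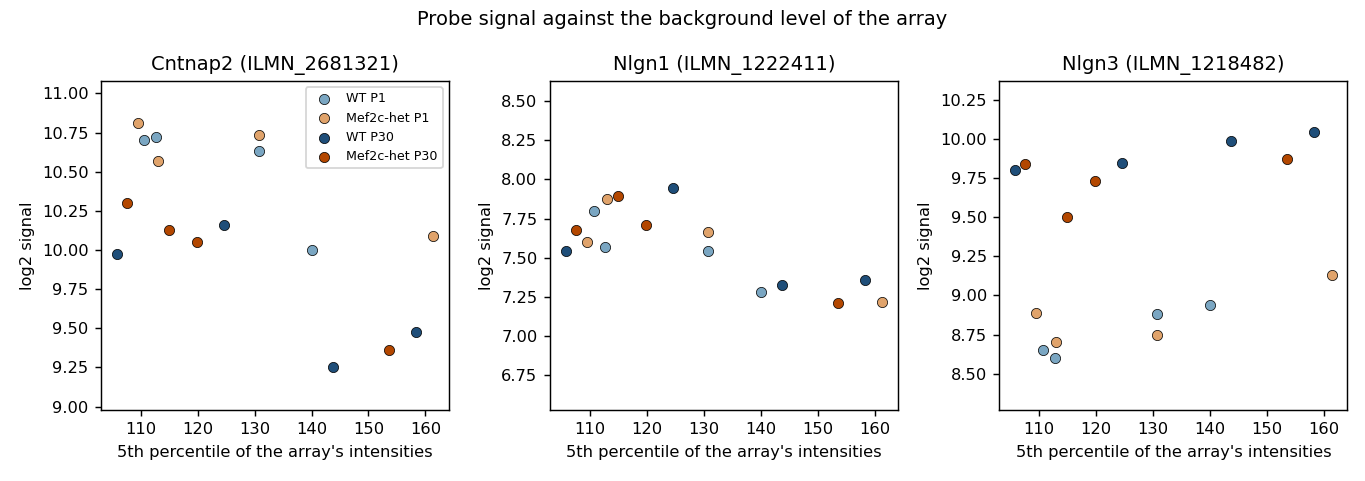
Log2 signal (vertical axis) of *Cntnap2*, *Nlgn1* and *Nlgn3* on each array against the 5th percentile of its deposited intensities (horizontal axis), a measure of its background, with colours for the 4 groups. *Cntnap2* and *Nlgn1* lie lower on the 5 arrays at 140.0 or above than on the others of the same group, while for *Nlgn3* the ages stay apart at every background.

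Loss of 1 *Mef2c* copy was not accompanied by a change of any member that passed the test, at either age. At P30, 0 of 10 member probes had an adjusted p under 0.05 in limma, where 0.00677% of all probes did, and 0 had an unadjusted p under 0.05, where 2.84% of all probes did. That share became 8.35% without *Mef2c*-het P30 replicate 7 and 4.51% without WT P30 replicate 2. It became 3.20% without *Mef2c*-het P30 replicate 5 and 1.56% without *Mef2c*-het P30 replicate 6. In limma, 1 member had an unadjusted p under 0.05 without WT P30 replicate 2 and 1 without *Mef2c*-het P30 replicate 5. WT and *Mef2c*-het arrays overlapped for all 10, while they did not overlap for 1.89% of all probes. Log2 differences lay between -0.24 and 0.25, and 7 of the 10 were negative. Their median was -0.04, beside -0.01 over all probes.

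The widest differences at P30 were those of *Cntnap2*, *Nrxn3* ILMN_2640909 and *Nlgn3*. *Cntnap2* was higher in *Mef2c*-het mice by 0.25 (95% confidence interval -0.26 to 0.75, exact permutation p = 0.371), with the 3 lowest of the 8 arrays those of higher background, 2 of them WT. The difference was 0.092 without WT P30 replicate 7, 0.45 without *Mef2c*-het P30 replicate 7 and 0.061 with a block for the array cluster. *Nrxn3* ILMN_2640909 was lower by 0.24 (-0.50 to 0.03, exact permutation p = 0.171) and *Nlgn3* by 0.19 (-0.41 to 0.04, exact permutation p = 0.143). Without the single array *Mef2c*-het P30 replicate 6 they were -0.14 and -0.11. *Nlgn2*, whose product organizes the inhibitory synapse, had the narrowest interval, from -0.21 to 0.09 around a difference of -0.06. The remaining members lay between -0.13 (*Lrrtm2*) and 0.08 (*Nlgn1*), and no interval excluded 0.

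At P1, 0 of 10 member probes had an adjusted p under 0.05 in limma, beside 0.0135% of all probes, and 0 an unadjusted p under 0.05, beside 2.28%. That share became 3.65% without WT P1 replicate 5, 3.99% without replicate 8 and 1.46% without replicate 4. Without *Mef2c*-het P1 replicate 2, 1 member had an unadjusted p under 0.05 in limma, beside 2.47% of all probes. No member had groups apart, against 1.42% of all probes. Both extremes were *Nrxn3* probes, ILMN_2640909 at -0.10 and ILMN_2763404 at 0.14, and 5 of the 10 differences were above 0, around a median of 0.02. Each shrank when 1 array was left out, the former being -0.025 without *Mef2c*-het P1 replicate 2 and the latter 0.035 without *Mef2c*-het P1 replicate 8. Over both ages the 95% confidence intervals of the members reached from -0.50 to 0.75, so that differences of that size were not excluded for the most variable probes.

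Whether the change with age itself differed between the genotypes was tested by the interaction in the same limma fit. 0 of 10 member probes had an adjusted p under 0.05, beside 0% of all probes, and 0 an unadjusted p under 0.05, beside 2.96%. The difference of the change, *Mef2c*-het minus WT, was widest for *Nlgn3*, at -0.28 (95% confidence interval -0.61 to 0.04, unadjusted p = 0.0801 and adjusted p = 0.998 in limma). It lay between -0.17 and 0.21 for the others. With a block for the array cluster, without *Mef2c*-het P1 replicate 2 or without WT P1 replicate 8, 1 of the 10 had an unadjusted p under 0.05 in limma and 0 an adjusted one. The share of all probes with an unadjusted p under 0.05 was 4.62% with the block and 2.99% without *Mef2c*-het P1 replicate 2. It was 6.39% without *Mef2c*-het P30 replicate 7 and 5.03% without WT P1 replicate 8. Without *Mef2c*-het P30 replicate 6 it was 1.92%, and without WT P1 replicate 4 it was 1.96%.

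**Figure D3:**
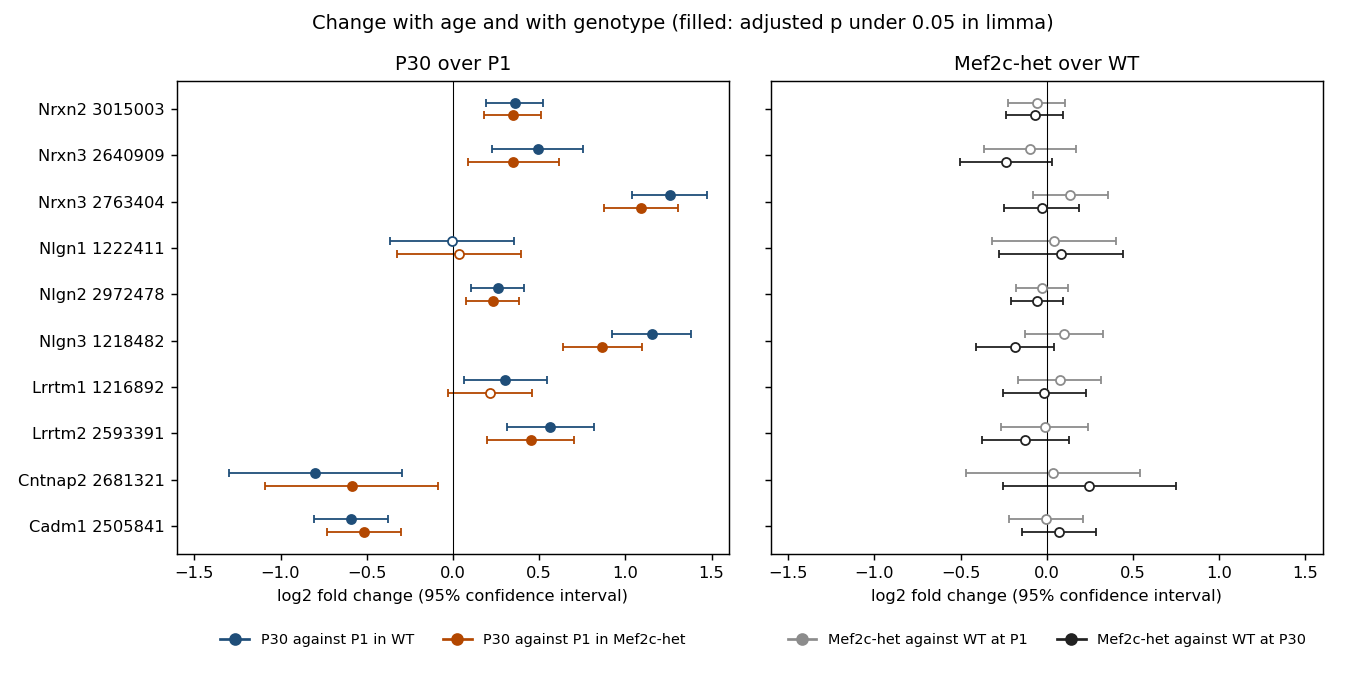
Log2 fold change (horizontal axis) of the 10 tested member probes with age in each genotype (left panel) and with genotype at each age (right panel), where bars are 95% confidence intervals and filled points have a limma adjusted p under 0.05. With age 9 points are filled in WT and 8 in *Mef2c*-het mice, while with genotype all 20 are open and all intervals hold 0.

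Other genes of the same pathways were described from 3 lists drawn from general knowledge, each gene by its tested probe of highest mean signal. Of the other neurexin partners and synaptic organizers, 36 of 42 were tested, and 15 were higher and 7 lower at P30 in WT (13 and 6 in *Mef2c*-het mice), with a median log2 fold change of 0.08. In all, 22 of the 36 were called in WT mice, a share near the 59.7% of all probes. The widest rise was that of *Clstn3* (calsyntenin 3, a postsynaptic neurexin ligand), at 1.46 in WT and 1.32 in *Mef2c*-het mice, and the widest fall that of *Cbln1* (cerebellin 1, a secreted neurexin ligand), at -2.35 and -2.18. Another tested *Clstn3* probe, ILMN_1229310, of lower signal, rose by only 0.31 in WT and 0.34 in *Mef2c*-het mice.

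Of 25 intracellular partners of neurexins and neuroligins, 19 were tested, and 15 were higher and 4 lower at P30 in WT, beside 28.0% and 31.7% of all probes, with 15 higher and 2 lower in *Mef2c*-het mice and medians of 0.74 and 0.63. The widest rise was that of *Lin7b* (an adaptor that forms a complex with CASK and Mint proteins), at 2.59 in WT and 2.67 in *Mef2c*-het mice, and the widest fall of a gene called in both genotypes was that of *Cask* itself, the kinase-like scaffold that binds the neurexin tail, at -0.64 and -0.88. The count of genes lower in *Mef2c*-het mice became 4 without the 5 arrays of higher background. Of the relatives of CADM1 and CNTNAP2, with contactins and potassium channels, 8 of 14 were tested, and 6 were higher and 1 lower in both genotypes. *Cadm2*, of the same family as *Cadm1*, rose by 1.02 in WT and 0.74 in *Mef2c*-het mice, and *Cntn6*, a contactin, fell by 0.88 in WT and by 0.74 in *Mef2c*-het mice. In the 3 lists together, 0 of 63 genes were called for genotype at P30, for genotype at P1 or for the interaction.

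**Figure D4:**
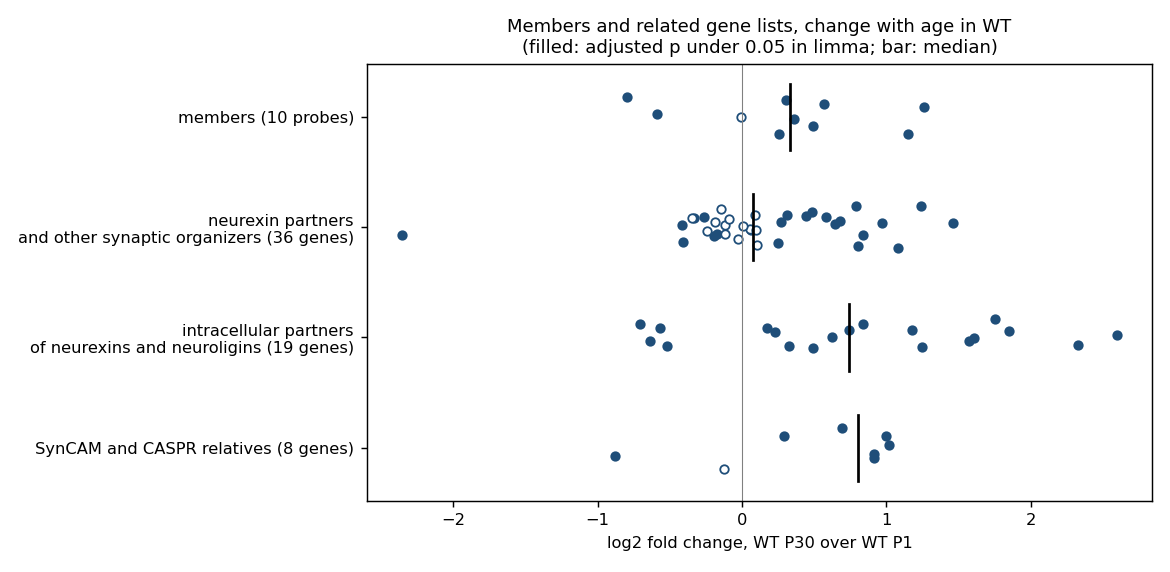
Log2 fold change from P1 to P30 in WT (horizontal axis) of the 10 member probes and of the tested genes of 3 related lists, 1 point per probe or gene, filled where the limma adjusted p was under 0.05, with a bar at each median. The medians are 0.33 for the members, 0.08 for other synaptic organizers, 0.74 for intracellular partners and 0.80 for the relatives of CADM1 and CNTNAP2.

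Markers of several cell types moved with age in the same samples. The summed signal of 7 mature synapse markers, on the linear scale after quantile normalization, ran from 25142 to 31042 on WT P1 arrays and from 98149 to 102957 on WT P30 arrays, with 7 of 7 called higher in both genotypes. That of 8 oligodendrocyte markers ran from 7223 to 8827 and from 73632 to 85189, with 8 of 8 higher in WT and 7 of 8 in *Mef2c*-het mice. The immature neuron markers went the other way, from 50027 to 51577 at P1 down to 20974 to 23325 at P30, and 5 of 5 were called lower in WT and 4 of 5 in *Mef2c*-het mice. The neuron markers *Snap25* and *Nefl* and the interneuron marker *Gad2* were detected on no array. Of 80 marker genes tested in 15 lists, 0 were called for genotype at either age. The part of these cell types in the change of the members with age was not tested.

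For the 5 member probes of the widest change with age, the probes of other genes with the most similar pattern over the 16 arrays were sought among the 14777 tested, by the root mean square difference of log2 signals each centred on its own mean. That difference was 0.10 for *Ccpg1* beside *Nrxn3* ILMN_2763404, 0.07 for *Rgs7* beside *Nlgn3*, 0.10 for *Cox20* beside *Cntnap2*, 0.09 for *Rassf1* beside *Cadm1* and 0.10 for *Jph1* beside *Lrrtm2*. The standard deviation of the member itself over the 16 arrays was 0.62, 0.55, 0.50, 0.32 and 0.31 in the same order.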

How the data were processed

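Total RNA of 16 mice, 4 per group, was hybridised to Illumina MouseRef-8 v2 arrays. The deposited table of the authors gives the mean bead intensity of 25697 probes per array, on a linear scale and before any scaling between arrays, and the bead standard error, also as an intensity. Beside these the authors deposited the count of beads and a detection p-value from negative control beads. The sources used here do not say whether background was subtracted before deposit. The 5th percentile of intensity lay at 105.8 to 130.8 on 11 arrays and at 140.0 to 161.4 on 5, so the deposited intensities still hold background. The submitters' processing notes name lumi and limma, and the methods state log2 transformation and quantile normalization.

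Here the 16 arrays were transformed to log2 with no constant added and quantile normalized together. The test took the 14777 probes detected (p under 0.05) on 4 or more arrays, in 1 fit of 4 groups with lmFit and eBayes of limma 3.58.1 in R 4.3.3, two-sided, with Benjamini-Hochberg adjustment over all of them. A two-sided exact permutation over arrays, which cannot go below 0.0286, was run on single probes. Current gene names came from RefSeq (GRCm38.p6) through Entrez number, accession, symbol or a unique synonym, for 25375 probes. Of these, 552 were named by a synonym. Named were all member probes, the widest rise and fall of each related list among genes called in both genotypes, any list gene called for genotype, and the nearest pattern of the 5 most changed member probes. Of 20 list genes with several tested probes, 0 had probes called in opposite directions in WT and 1 (*Dlgap4*) in *Mef2c*-het mice. The members and lists were chosen with earlier results of these data known. The quantile normalization and the limma fit were tested on simulated data, and the other steps were not. The settings tried were normexp correction, median scaling, cyclic loess, other detection filters (none, or p under 0.01), trend with robust variances, a covariate for sex, blocks for the array cluster and for the replicate number, each age alone, and each array left out. Leaving out the 5 arrays of higher background was added after the data were seen.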

Additional observations from a re-analysis of the deposited data

Results flagged for a closer look

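In 2 of the 44 groups of 4 arrays, 4 for each of the 11 member probes, 1 array stood far from the others by Dixon's test, where chance alone would give about 2.2. For *Cntnap2* in WT mice at P1, replicate 8 had a log2 signal of 9.999 and the next lowest array 10.63, a gap of 0.872 of the range of the group. For *Cadm1* in WT mice at P30, replicate 7 had a log2 signal of 11.33 and the next lowest array 11.70, a gap of 0.846 of the range. Both are arrays of higher background. Without the first the change of *Cntnap2* with age in WT was -0.97, and both calls in WT remained without either array.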

How the results depend on the processing

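With 9 of 10 member probes called for age in WT and 8 in *Mef2c*-het mice, the counts lay between 7 and 9 and between 6 and 8 under 9 other settings, and between 8 and 9 and between 6 and 8 when each of the 16 arrays was left out. The counts for genotype and for the interaction were 0 under every setting run. Of the 17 values called for age, 11 kept the call under all 25 settings and 0 changed sign. Of the 33 values not called, 17 changed sign under some setting, none of those turned values being beyond 0.14 in size. Scaling to a common median gave 0.0022 for *Nrxn3* ILMN_2763404 and 0.021 for *Lrrtm1* for genotype at P30, and 0.0011 for *Cadm1* at P1. Cyclic loess gave 0.011 for *Nlgn1* with age in WT and 0.00024 for *Lrrtm1* for genotype at P30. The sex covariate gave 0.14 for *Nlgn1* with age in WT, and 0.0086 for *Nrxn2* and -0.010 for *Nlgn1* for the interaction. A block for the array cluster gave 0.12 for *Nlgn1* with age in WT, -0.034 for *Nlgn1* and 0.057 for *Lrrtm1* for genotype at P30, and -0.077 for *Nlgn1* for the interaction. Without the 5 arrays of higher background the values were 0.11 for *Nlgn1* with age in WT, -0.086 for *Cadm1* for genotype at P30, and 0.067 for *Nrxn2*, -0.063 for *Nlgn1* and -0.011 for *Cadm1* for the interaction. The cause of these changes was not tested.

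Leaving out 1 array, the sign also turned for *Nlgn1* with age (-0.14 to 0.077 in WT, -0.090 to 0.17 in *Mef2c*-het mice). For genotype at P30 it turned for *Nrxn3* ILMN_2763404 (-0.087 to 0.020), *Nlgn1* (-0.0090 to 0.22), *Lrrtm1* (-0.11 to 0.066) and *Cadm1* (-0.035 to 0.11). At P1 it turned for *Nlgn1* (-0.053 to 0.17), *Nlgn2* (-0.055 to 0.0044), *Lrrtm1* (-0.0088 to 0.13), *Lrrtm2* (-0.060 to 0.064), *Cntnap2* (-0.14 to 0.19) and *Cadm1* (-0.052 to 0.044). For the interaction it turned for *Nrxn2* (-0.068 to 0.052), *Nlgn1* (-0.085 to 0.18), *Nlgn2* (-0.067 to 0.025) and *Cadm1* (-0.029 to 0.12).

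The correlations of same-numbered deviations were 0.091, 0.40 and 0.82 at P1 and 0.17, -0.52 and 0.70 at P30. In the pairs at 0.82 (P1 replicate 8) and 0.70 (P30 replicate 7) both arrays were of higher background. In the pair at -0.52 (P30 replicate 6) only the WT array was. Whether the replicate number pairs the arrays cannot be told from these correlations. With the replicate number as a block at each age alone, 0 of 10 member probes were called for genotype at P30 and 0 at P1, and 1 at each age had an unadjusted p under 0.05 in limma. The block gave 0.0024 for *Lrrtm1* at P30, and 0.039 for *Nrxn3* ILMN_2640909, -0.013 for *Lrrtm1*, 0.038 for *Lrrtm2* and 0.064 for *Cadm1* at P1. No paired analysis was possible for the change with age because the P1 and P30 arrays of 1 genotype share no replicate number. The deposited intensities hold background, and with normexp correction the rise of *Nrxn3* ILMN_2763404 was 1.76 in WT and 1.51 in *Mef2c*-het mice.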
